A study of Coturnix japonica with 12 samples.

Results

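Ethynylestradiol (EE), a synthetic oestrogen, was compared with its vehicle in the left Müllerian duct of female Japanese quail (Coturnix japonica). The comparison rests on 6 of the 12 RNA sequencing libraries of the study and on 12113 of 16013 genes, those with an FPKM (a level scaled to gene length and library depth) of at least 1 in at least 3 of the 12 libraries. The 3 EE left libraries came from female embryos that were kept in surrogate eggshells and given EE in sesame oil from embryonic day 3 to day 12. The 3 oil left libraries came from female embryos kept in the same way and given sesame oil alone over the same days. The other 6 libraries, EE and oil right ducts, entered the filter on low values and the same model, where they shared in the estimate of the spread, and they served to test where the left duct differed. The labels used here state neither a strain, a dose nor an age at collection, and they do not say whether the replicates were separate embryos or pools, so the p-values measure the spread between these libraries, which may in part be technical.

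The Müllerian duct is the embryonic tube that becomes the oviduct. In most female birds the left duct develops and the right one regresses. Oestrogens act through nuclear receptors, of which ESR1 is the main one in the oviduct, and in the growing oviduct they are known to drive induction of the progesterone receptor, formation of tubular gland cells that make egg-white proteins, and formation of ciliated and mucus-secreting cells in the surface epithelium. The duct also holds a mesenchymal stroma, a coelomic covering, smooth muscle precursors and vessels, and a bulk library sums over all of them. A lower level in such a library may come from fewer cells of a type or from less RNA per cell, and these cannot be told apart here.

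Total counts were between 13303458 and 23621985 per left library, which is also the range over all 12. Genes known from the duct were read beside the tissue label, although not all of them are particular to the duct. The homeobox gene PAX2 had 25.2, 26.9 and 31.5 FPKM in EE and 26.5, 26.9 and 24.8 FPKM in oil left ducts, LHX1 had 14.8, 13.1 and 10.3 FPKM in EE and 10.6, 9.68 and 6.26 FPKM in oil left ducts, and EMX2 had 69.6, 72.4 and 70 FPKM in EE and 80.2, 85.9 and 69.5 FPKM in oil left ducts. WNT7A, a signal of the duct epithelium, had 29.2, 28.4 and 27 FPKM in EE and 29.1, 30.5 and 28.4 FPKM in oil left ducts. EPCAM, an epithelial adhesion protein, had 233, 195 and 178 FPKM in EE and 124, 112 and 115 FPKM in oil left ducts. These 5 genes were present in all 6 libraries. PAX2 is also among the highest members of the mesonephros and kidney markers given below, so its presence does not set the duct apart from that tissue. A library that stood apart was oil left 1. Its 38 feather keratin genes, markers of skin, summed to 1116 FPKM, against 1.69 and 13.4 FPKM in oil left 2 and 3, and to 2.68, 0.53 and 8.11 FPKM in EE left 1, 2 and 3. Skeletal muscle and heart markers summed to 103 to 114 FPKM in EE left ducts and to 104 to 123 FPKM in oil left ducts, and neural markers to 39.1 to 58.1 FPKM in EE and 41.2 to 44.0 FPKM in oil left ducts. Macrophage and leukocyte markers summed to 56.4 to 66.2 FPKM in EE and 52.9 to 56.2 FPKM in oil left ducts, without overlap. Mesonephros and kidney markers, of which WT1 was the 1 called member of 5 tested, summed to 84.8, 108 and 109.8 FPKM in EE left ducts and to 119.8, 120.1 and 115 FPKM in oil left ducts, again without overlap. WT1 alone averaged 31.0 FPKM in EE and 49.6 FPKM in oil left ducts, and it is also a member of the stroma and mesothelium list. The median log2 ratio of the 5 tested members was 0.07. The part of these markers in the results was not tested. Muscle, neural and erythroid sums overlapped, with erythroid markers at 16833 to 35575 FPKM in EE and 22906 to 51015 FPKM in oil left ducts. NKX2-5 and CARTPT were at 0 in all 6 left libraries. Haemoglobin transcripts took 1.68% ± 0.599 of the counts in EE left ducts and 2.13% ± 0.834 in oil left ducts (SD, n = 3 each).

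**Figure D1:**
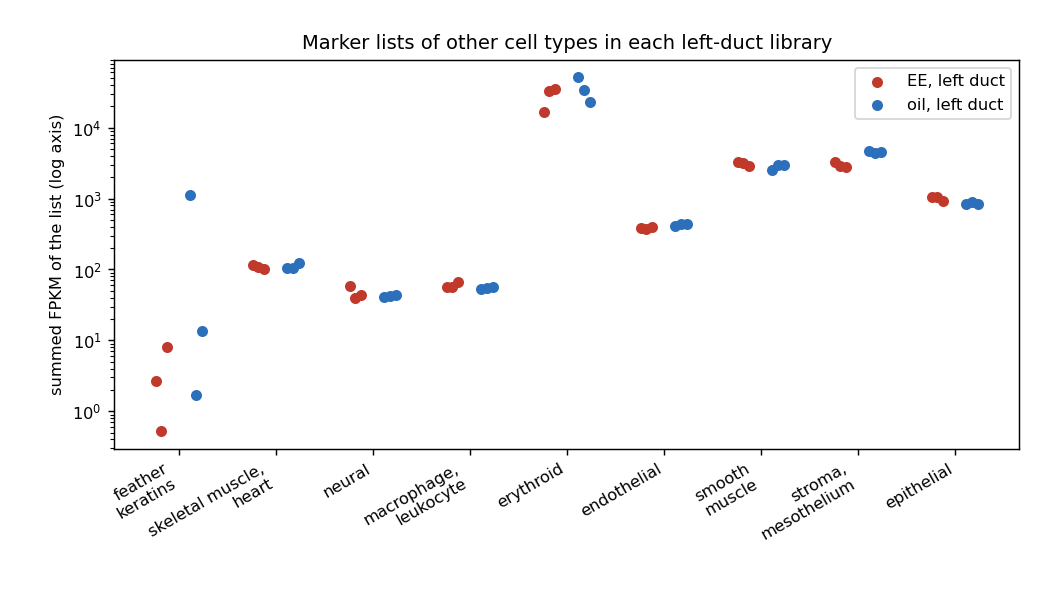
Summed FPKM (log axis) of 9 marker lists in each of the 3 EE left libraries (red) and the 3 oil left libraries (blue), 1 point per library. Feather keratins reach 1116 FPKM in oil left 1 and at most 13.4 FPKM in any other left library, stroma and mesothelium markers lie lower in all 3 EE libraries, and epithelial markers lie higher in them.

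Genes that rose and genes that fell with EE in the left duct were near equal in number, but the large changes were mostly upward. Of 12113 genes, 1605 (13.3%) passed the threshold, an adjusted p under 0.05 in edgeR's quasi-likelihood test with Benjamini-Hochberg adjustment over all genes. There were 823 genes (6.79%) higher in EE and 782 (6.46%) lower. These shares are the background against which the counts of every gene list below are to be read. At an unadjusted p under 0.05, 1610 genes (13.3%) were higher and 1575 (13.0%) lower. DESeq2 called 966 higher (7.99%) and 995 lower (8.23%), and limma on log2(FPKM + 1) called 805 (6.65%) and 575 (4.75%). Changes of at least 2-fold were found for 271 higher genes (2.24%) and 158 lower genes (1.3%). All 3 EE left libraries lay above all 3 oil left libraries in 1902 genes (15.7%), called or not, and below them in 1884 (15.6%). The first principal component of the 6 left libraries held 54.62% of the variance and set the 3 EE libraries (scores -30.3, -30.3 and -28.9) apart from the 3 oil libraries (36.1, 23.9 and 29.4). Oil left 1 was the extreme library of the second component, with 15.7% of the variance and a score of -29.6. Of the 1605 called genes, 904 (56.3%) kept their call in each of the 6 fits that left out 1 left library, among them 339 of the 429 genes that changed at least 2-fold (79.0%). A call that did not survive one of these fits is given with the library and the adjusted p of edgeR. In every called gene whose 6 values are given, the EE and oil left libraries did not overlap. For genes named by extreme ratio this was a condition of the choice. Many others were chosen by low p, so the absence of overlap is no separate result.

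**Figure D2:**
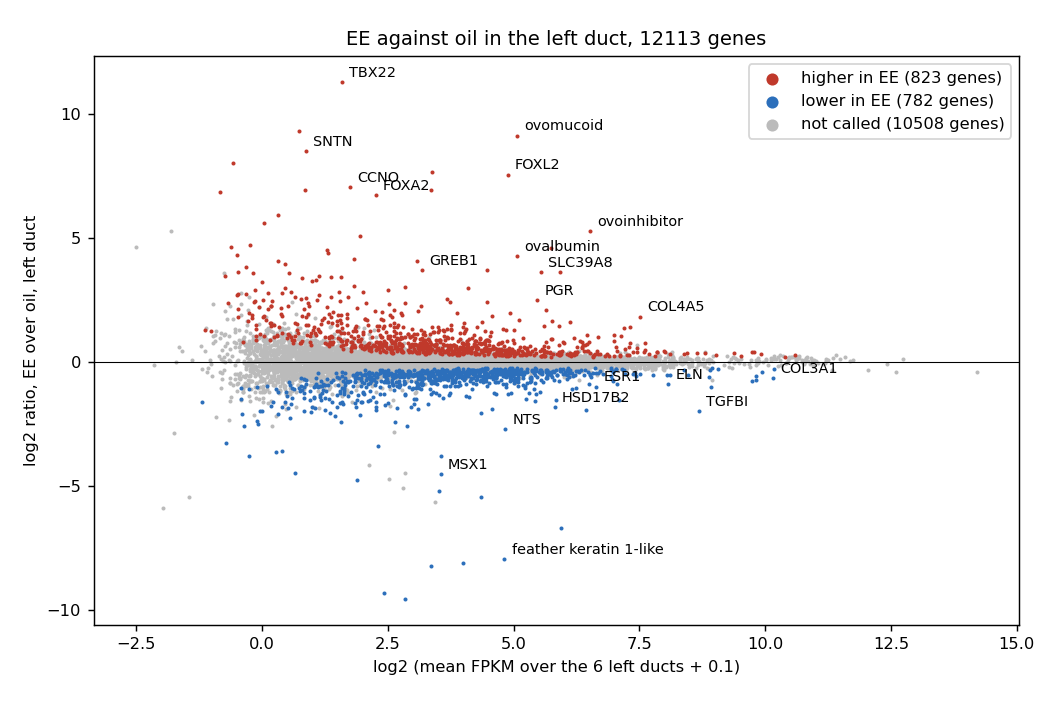
Log2 ratio of EE over oil in left ducts (vertical axis) against the log2 mean FPKM of the 6 left libraries plus 0.1 (horizontal axis), 1 point per gene. Genes called higher in EE (red, 823) reach ratios above 11 on the log2 scale, while the lowest called genes (blue, 782) include feather keratins that were high in oil left 1 alone.

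The receptors that carry steroid signals moved in opposite directions. PGR, the progesterone receptor and a classic oestrogen-induced gene, had 76.9, 72.5 and 75.5 FPKM in EE and 9.67, 14.8 and 15.1 FPKM in oil left ducts (log2 ratio 2.5 ± 0.18 SE, adjusted p = 2.33e-07). GREB1, a coactivator that oestrogen receptors induce, had 18.2, 14.3 and 17.4 FPKM in EE and 1.08, 1.59 and 1.09 FPKM in oil left ducts (log2 ratio 3.7 ± 0.23 SE, adjusted p = 6.72e-08). The groups did not overlap for either gene, as in 15.7% of all genes in this direction, and the 3 EE libraries were tight. ESR1, the main oestrogen receptor, was lower, with 72.8, 65.4 and 62.9 FPKM in EE and 116.02, 139 and 142 FPKM in oil left ducts (log2 ratio -0.99 ± 0.09 SE, adjusted p = 4.18e-06). ESR2, the other oestrogen receptor, did not reach the filter on low values.

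In the list of steroid receptors and oestrogen targets, 6 of 24 tested members rose and 4 fell, against 6.79% and 6.46% of all genes, and the median log2 ratio was 0.00, as over all genes. IGF1, a growth factor that oestrogen induces in mammalian uterus, had 6.01, 6.83 and 5.82 FPKM in EE and 1.28, 1.71 and 2.58 FPKM in oil left ducts (log2 ratio 1.75 ± 0.18 SE, adjusted p = 7.85e-06). CTSD, a lysosomal protease and an oestrogen target in breast cancer cells, had 146, 143 and 203 FPKM in EE and 91.2, 84.3 and 93.6 FPKM in oil left ducts (log2 ratio 0.86 ± 0.12 SE, adjusted p = 0.000102). MYC, a growth-promoting transcription factor, had 11.8, 13.6 and 15.7 FPKM in EE and 7.24, 8.97 and 8.41 FPKM in oil left ducts (log2 ratio 0.72 ± 0.15 SE, adjusted p = 0.00311). STC2, a secreted glycoprotein hormone, fell, with 1.15, 0.63 and 1.02 FPKM in EE and 4.06, 2.25 and 4.48 FPKM in oil left ducts (log2 ratio -1.94 ± 0.34 SE, adjusted p = 0.00112). The other members that fell, SGK1 and NR3C2, the mineralocorticoid receptor, had log2 ratios of -0.63 and -0.36 and weak calls. SGK1 was not called without EE left 1, EE left 2, oil left 1 or oil left 3 (adjusted p 0.0621 to 0.0963). NR3C2 was not called without EE left 1, EE left 3, oil left 1, oil left 2 or oil left 3 (adjusted p 0.0527 to 0.154). Without EE left 1, oil left 1 or oil left 3 only 2 members of the list were called lower.

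Called genes of the steroid metabolism list changed in both directions. The list also holds AHR, the aryl hydrocarbon receptor, and its repressor AHRR, and both are counted among the members that fell. HSD17B2, which oxidises oestradiol to oestrone, had 22.9, 24.6 and 27.7 FPKM in EE and 107, 76 and 79 FPKM in oil left ducts (log2 ratio -1.82 ± 0.15 SE, adjusted p = 8.98e-07). AHRR, which represses signalling by the aryl hydrocarbon receptor, had 0.28, 0.30 and 0.48 FPKM in EE and 1.39, 1.15 and 1.59 FPKM in oil left ducts (log2 ratio -1.97 ± 0.33 SE, adjusted p = 0.000728). STS, which frees oestrogens from their sulphates, had 5.37, 4.95 and 5.0 FPKM in EE and 7.84, 6.54 and 7.26 FPKM in oil left ducts (log2 ratio -0.51 ± 0.12 SE, adjusted p = 0.0104). Its adjusted p was 0.0762 without oil left 1, oil right 1 and EE right 1. Cytochrome P450 1B1 (LOC107311343), which hydroxylates oestradiol, rose instead, with 5.35, 6.67 and 6.14 FPKM in EE and 1.43, 3.24 and 2.91 FPKM in oil left ducts (log2 ratio 1.25 ± 0.22 SE, adjusted p = 0.000952). Of 13 tested members of the steroid metabolism list, 2 rose and 5 fell (median log2 ratio -0.10). Steroid 17-alpha-hydroxylase (LOC107316091), an androgen-forming enzyme at a low level, stood at -2.56 and was not called without EE left 1, EE left 2, oil left 1 or oil left 2 (adjusted p 0.0679 to 0.0906). AHR stood at -0.38 and was not called without EE left 1, EE left 2, EE left 3, oil left 2 or oil left 3 (adjusted p 0.0766 to 0.122). HSD17B12 stood at 0.28 and was not called without any 1 of the 6 left libraries (adjusted p 0.075 to 0.134). The count of members called higher was therefore 1 without any 1 left library, and that called lower 3 without EE left 1, EE left 2 or oil left 2.

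Most of the tested egg-white genes rose, and ovomucoid, mucin-5B and ORM2 were near 0 in oil left ducts. Ovoinhibitor (LOC107320451), a protease inhibitor of egg white, had 175, 159 and 201 FPKM in EE and 3.62, 5.7 and 4.11 FPKM in oil left ducts (log2 ratio 5.29 ± 0.26 SE, adjusted p = 8.32e-09). Ovomucoid (LOC107320484), a trypsin inhibitor of egg white, had 38.3, 56.4 and 107 FPKM in EE and 0.15, 0.09 and 0.08 FPKM in oil left ducts (log2 ratio 9.13 ± 0.83 SE, adjusted p = 2.86e-06). Ovalbumin (LOC107309565), the main egg-white protein of the laying hen, had 73.2, 56.7 and 61.4 FPKM in EE and 4.05, 2.33 and 3.46 FPKM in oil left ducts (log2 ratio 4.27 ± 0.45 SE, adjusted p = 1.16e-05). Riboflavin-binding protein (LOC107317492), which carries the vitamin into egg white and is no member of the egg-white list, had 18.8, 19.7 and 22.7 FPKM in EE and 0.21, 0 and 0.07 FPKM in oil left ducts (log2 ratio 7.66 ± 0.69 SE, adjusted p = 2.42e-06). Mucin-5B (LOC107314549), which contributes to ovomucin, had 2.21, 1.97 and 2.56 FPKM in EE and 0.04, 0.03 and 0.03 FPKM in oil left ducts (log2 ratio 5.94 ± 0.57 SE, adjusted p = 4.67e-06). In each of these genes every EE library was above every oil library by a wide margin, although ovomucoid varied over a more than 2-fold range among the 3 EE libraries.

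Of 15 egg-white genes with values, 9 passed the filter on low values and were tested. Of the tested genes 7 rose (77.8%, against 6.79% of all genes) and 0 fell, with a median log2 ratio of 4.27. No tested member fell at an unadjusted p under 0.05, and none did in DESeq2 or limma. Ovomucoid, mucin-5B and ORM2 were under 1 FPKM in every oil left duct, so they passed the filter through other libraries. The share that rose, the median and the absence of falls therefore depend in part on this filter. ORM2, an acute-phase lipocalin, rose, with 32.5, 10.7 and 16.9 FPKM in EE and 0.29, 0 and 0.19 FPKM in oil left ducts (log2 ratio 6.96 ± 1.01 SE, adjusted p = 0.000205). CLU, a secreted chaperone, had 98.8, 105 and 110.4 FPKM in EE and 53.8, 66 and 58.9 FPKM in oil left ducts (log2 ratio 0.80 ± 0.11 SE, adjusted p = 0.000182). A member of the lipocalin family, extracellular fatty acid-binding protein (LOC107321681), had 33.7, 35.4 and 21.9 FPKM in EE and 9.26, 16.4 and 12.2 FPKM in oil left ducts (log2 ratio 1.24 ± 0.35 SE). The call was lost without EE left 1, EE left 2, oil left 1 or oil left 3 (adjusted p 0.0836 to 0.117). In the eggshell list 1 of 19 tested members rose and 2 fell (median -0.12), which is near the background. The member that rose was SLC4A4, a sodium bicarbonate cotransporter, at 8.16, 7.96 and 9.84 FPKM in EE and 3.7, 4.97 and 4.72 FPKM in oil left ducts (log2 ratio 0.94 ± 0.17 SE, adjusted p = 0.00108). Ovocalyxin-32 (LOC107318369), a shell matrix protein, had 58.3, 49.7 and 57.5 FPKM in EE and 88.1, 67.9 and 89.2 FPKM in oil left ducts (log2 ratio -0.58 ± 0.14 SE, adjusted p = 0.0108). Its call was lost without EE left 2 (adjusted p = 0.0575). CFTR, a chloride and bicarbonate channel, had 8.29, 7.15 and 7.44 FPKM in EE and 9.56, 14.8 and 13.1 FPKM in oil left ducts (log2 ratio -0.72 ± 0.18 SE, adjusted p = 0.0112). The call was lost without EE left 2 or oil left 2 (adjusted p 0.0518 to 0.0661).

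**Figure D3:**
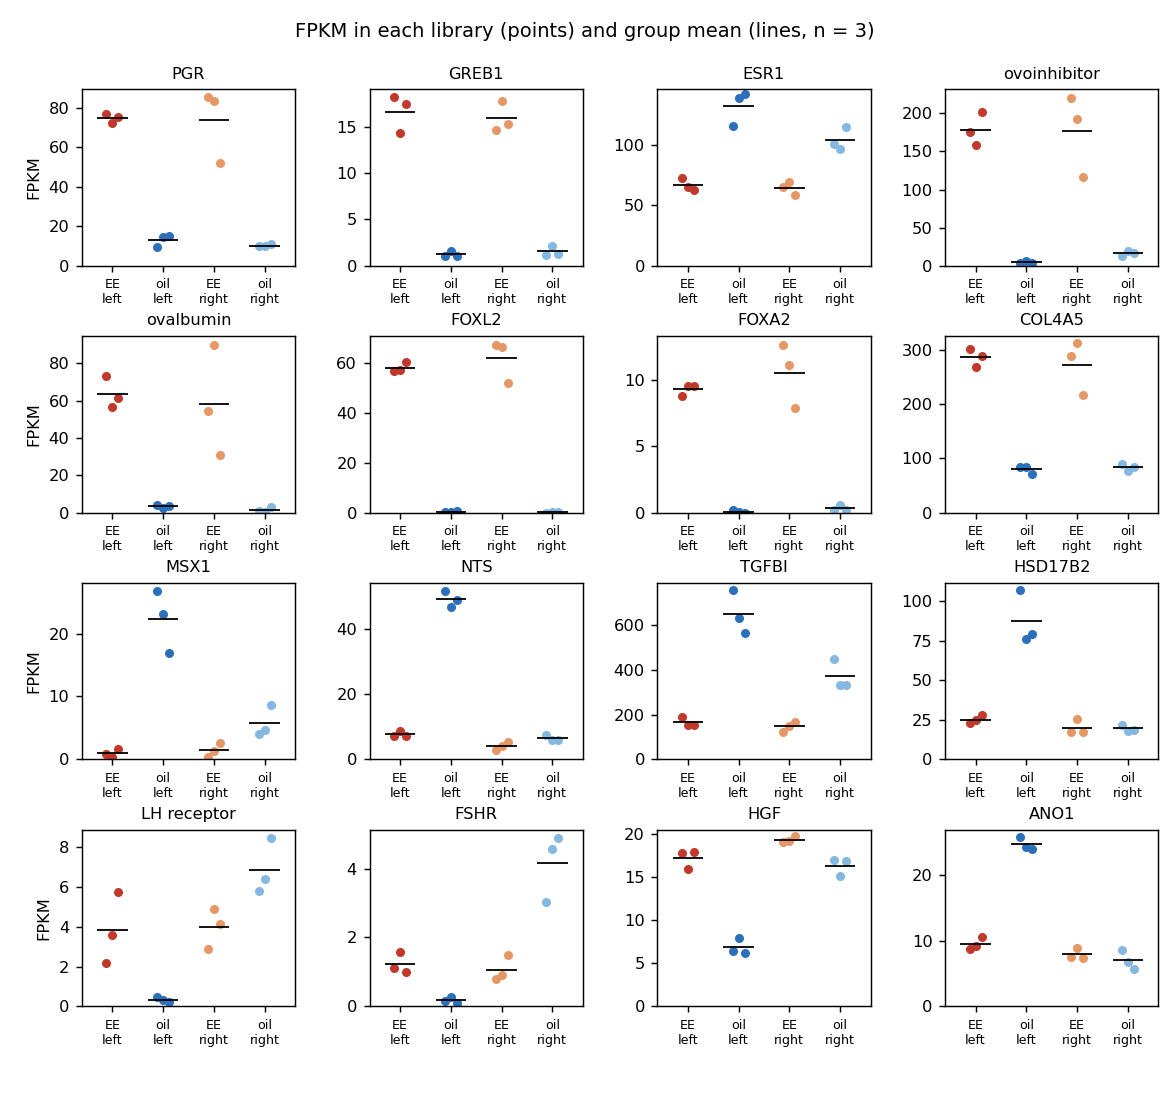
FPKM (vertical axes, from 0) of 16 genes in the 3 libraries of each group (points) with the group mean (line), for EE left, oil left, EE right and oil right ducts. PGR, GREB1, the egg-white genes, FOXL2, FOXA2, COL4A5, HGF and both gonadotropin receptors are higher in EE than in oil left libraries, while ESR1, MSX1, NTS, TGFBI, HSD17B2 and ANO1 are lower in them.

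Part of the secretory machinery rose with these products. AGR2, a disulphide isomerase needed for mucin folding in mouse gut, had 84.7, 83.2 and 80.05 FPKM in EE and 26.8, 29 and 22.4 FPKM in oil left ducts (log2 ratio 1.64 ± 0.12 SE, adjusted p = 3.69e-07). GALNT7, which adds sugars to mucin-type proteins, had 17.9, 16.4 and 16.9 FPKM in EE and 11.7, 11.1 and 10.7 FPKM in oil left ducts (log2 ratio 0.60 ± 0.09 SE, adjusted p = 0.000425). CALR, a chaperone of the endoplasmic reticulum, had 833, 798 and 793 FPKM in EE and 654, 667 and 669 FPKM in oil left ducts (log2 ratio 0.27 ± 0.07 SE, adjusted p = 0.0176). Its call was lost without EE left 1, oil left 1, oil left 2 or oil left 3 (adjusted p 0.052 to 0.0718). In this list 7 of 41 tested members rose (17.1%) and 0 fell in edgeR, and the median log2 ratio was 0.09. At an unadjusted p under 0.05 there were 2 members lower, and DESeq2 called 1. AGR2 and GALNT7 were the members that kept the call in all 6 fits with 1 left library left out. The count was 3 without EE left 1 or oil left 1, 2 without oil left 2 and 4 without oil left 3, and without oil left 2 another member was called lower.

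Genes of transport, channels and fatty acid binding changed in both directions, and a bulk library does not place them in a cell type. SLC39A8, an importer of zinc and manganese, had 111, 86.2 and 61.9 FPKM in EE and 7.27, 7.11 and 6.19 FPKM in oil left ducts (log2 ratio 3.64 ± 0.30 SE, adjusted p = 8.98e-07). CLIC6, a chloride intracellular channel protein, had 126, 76 and 134 FPKM in EE and 7.92, 10.1 and 8.62 FPKM in oil left ducts (log2 ratio 3.64 ± 0.22 SE, adjusted p = 6.72e-08). SLC27A6, a fatty acid transporter, had 16.9, 14 and 16.2 FPKM in EE and 1.02, 1.01 and 0.68 FPKM in oil left ducts (log2 ratio 4.07 ± 0.26 SE, adjusted p = 7.21e-08). FABP3, which binds fatty acids in the cytosol, had 243, 211 and 241 FPKM in EE and 68.6, 103 and 84.7 FPKM in oil left ducts (log2 ratio 1.43 ± 0.13 SE, adjusted p = 3.61e-06). KCNK1, a background potassium channel, had 38.7, 37.3 and 36.1 FPKM in EE and 9.91, 9.89 and 10.8 FPKM in oil left ducts (log2 ratio 1.86 ± 0.10 SE, adjusted p = 3.06e-08). SLC5A9, a sodium-coupled sugar transporter, rose, with 1.59, 1.68 and 2.17 FPKM in EE and 0.02, 0.06 and 0.03 FPKM in oil left ducts (log2 ratio 5.62 ± 0.78 SE, adjusted p = 0.000144). ANO1, a calcium-activated chloride channel, went down, with 8.69, 9.26 and 10.6 FPKM in EE and 25.9, 24.4 and 24.1 FPKM in oil left ducts (log2 ratio -1.4 ± 0.13 SE, adjusted p = 3.13e-06). ANO4, another member of its family, had 0.08, 0.09 and 0.12 FPKM in EE and 1.32, 0.62 and 0.81 FPKM in oil left ducts (log2 ratio -3.24 ± 0.46 SE, adjusted p = 0.000168). CLIC6, SLC27A6, FABP3, KCNK1 and SLC5A9 were named by low p, gain in FPKM or extreme ratio over all genes. They are no members of the list of channels and transporters. In that list 6 of 24 tested members rose (25%) and 3 fell (12.5%), with a median of 0.10. The potassium channel subunits KCNQ1 (1.0) and KCNJ16 (1.02) and the cation-chloride cotransporters SLC12A2 (0.73) and SLC12A7 (0.64) were among those that rose.

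Several transcription factors known from ovary, palate and endoderm rose with EE, and FOXL2, TBX22 and FOXA2 did so from levels near 0. FOXL2, which maintains ovarian granulosa cells, had 56.8, 57.3 and 60.8 FPKM in EE and 0.09, 0.30 and 0.63 FPKM in oil left ducts (log2 ratio 7.55 ± 0.33 SE, adjusted p = 2.74e-09). It had the lowest p of all genes called higher in the left duct. TBX22, a T-box factor known from palate formation, had 6.0, 4.99 and 6.42 FPKM in EE and 0, 0 and 0 FPKM in oil left ducts. With no count in any oil library, it was at least 105-fold higher, taking 3 counts per library as the limit that a count of 0 allows. FOXA2, a factor needed for uterine glands in mouse, had 8.76, 9.56 and 9.56 FPKM in EE and 0.18, 0.05 and 0 FPKM in oil left ducts (log2 ratio 6.73 ± 0.51 SE, adjusted p = 3.88e-07). EYA2, a transcriptional coactivator, had 3.79, 2.79 and 2.45 FPKM in EE and 0.68, 0.44 and 0.74 FPKM in oil left ducts (log2 ratio 2.28 ± 0.23 SE, adjusted p = 8.18e-06). GATA4, a gonadal and cardiac factor, had 2.37, 3.59 and 3.76 FPKM in EE and 1.54, 1.66 and 1.61 FPKM in oil left ducts (log2 ratio 1.0 ± 0.20 SE, adjusted p = 0.00259).

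MSX1 went the other way. This homeobox factor had 0.81, 0.43 and 1.61 FPKM in EE and 26.7, 23.1 and 17 FPKM in oil left ducts (log2 ratio -4.52 ± 0.52 SE, adjusted p = 2.28e-05). Its log2 ratio was the lowest among called genes with a symbol other than a LOC number that met 2 conditions. These were no overlap between the groups and a mean count of at least 50 in the higher group. The paralogue MSX2, which is linked to regression of the duct in chicken, had 79.6, 72.6 and 76.1 FPKM in EE and 75.7, 73.8 and 72.6 FPKM in oil left ducts (log2 ratio 0.02 ± 0.09 SE, adjusted p = 0.897). The other transcription factors with the lowest p among those that fell included GATA2, with 37.1, 37.1 and 43.5 FPKM in EE and 63.6, 61.4 and 57 FPKM in oil left ducts (log2 ratio -0.64 ± 0.09 SE, adjusted p = 0.000192). With it were the mesenchymal factor PRRX1 (-0.51), WT1, a factor of mesothelium and kidney (-0.69), and TBX3 (-0.64). In the list of duct formation factors 11 of 50 tested members rose (22%) and 11 fell (22%), and the median log2 ratio was 0.06. FOXL2, TBX22, FOXA2 and EYA2, counted among those that rose, were under 1 FPKM in every oil left duct. They passed the filter on low values through other libraries, so the share that rose depends in part on this filter. PAX2, LHX1 and EMX2, which are required for the duct to form in mouse, stood at 0.08 ± 0.12, 0.50 ± 0.20 and -0.17 ± 0.09 SE (adjusted p = 0.749, 0.127 and 0.282). SOX8 had a log2 ratio of -2.5 and was not called without EE left 2, EE left 3, oil left 1 or oil left 2 (adjusted p 0.0526 to 0.113). SOX17 stood at 2.03 and was not called without EE left 1, EE left 3, oil left 1 or oil left 2 (adjusted p 0.0837 to 0.114). Without EE left 3 the members called higher were 6.

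Among HOX genes, which set position along the reproductive tract, more fell than rose. Of 32 tested members 8 fell (25%, against 6.46% of all genes) and 3 rose (9.38%, against 6.79%), with a median log2 ratio of -0.39. HOXA11, known for its role in uterine development in mouse, had 12.8, 13.4 and 12.8 FPKM in EE and 23.4, 22.9 and 19 FPKM in oil left ducts (log2 ratio -0.76 ± 0.16 SE, adjusted p = 0.00489). HOXB5 had 6.56, 6.07 and 8.23 FPKM in EE and 9.65, 11.1 and 11.5 FPKM in oil left ducts (log2 ratio -0.64 ± 0.14 SE, adjusted p = 0.00581). HOXD8 rose, with 13.8, 16.8 and 17.7 FPKM in EE and 5.36, 6.49 and 7.94 FPKM in oil left ducts (log2 ratio 1.28 ± 0.21 SE, adjusted p = 0.000516). These 3 genes kept their calls without any 1 left library. HOXA10 (-0.71) was not called without EE left 1 or oil left 1 (adjusted p 0.0616 to 0.0672). HOXA3 (-0.49) was not called without EE left 1 or EE left 2 (adjusted p 0.0527 to 0.0601), and HOXA5 (-0.77) was not called without EE left 2 or oil left 2 (adjusted p 0.0741 to 0.0832). HOXD3 (0.63) lost its call without EE left 3 or oil left 3 (adjusted p 0.0863 to 0.0883), as did HOXB7 (0.48) without EE left 2, EE left 3, oil left 1 or oil left 2 (adjusted p 0.0609 to 0.11). The count of members called lower was 3 without EE left 2 and 5 without oil left 1, and that called higher was 1 without EE left 3.

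Genes of multiciliated cells, which line the oviduct and move its contents, rose, and edgeR called none of those tested lower. Among regulators of these cells 4 of 18 tested members rose (22.2%), with a median of 0.16, and at an unadjusted p under 0.05 there was 1 member lower. CCNO, which acts in the amplification of basal bodies, summed to 476 counts in the 3 EE left ducts and to 3 counts in the 3 oil left ducts, a ratio of 149.5 after scaling (95% interval 50.8 to 728, counting error only). DEUP1, which builds the deuterosomes on which centrioles multiply, had 3.33, 2.57 and 2.32 FPKM in EE and 0.65, 0.64 and 0.52 FPKM in oil left ducts (log2 ratio 2.16 ± 0.29 SE, adjusted p = 0.000107). FOXJ1, the master regulator of motile cilia, had 7.86, 9.85 and 8.84 FPKM in EE and 3.04, 3.9 and 2.77 FPKM in oil left ducts (log2 ratio 1.43 ± 0.37 SE, adjusted p = 0.0154). The call was lost without EE left 2, oil left 1 or oil left 3 (adjusted p 0.0547 to 0.0696). ULK4 stood at 0.46 and was not called without EE left 1, EE left 2, EE left 3, oil left 1 or oil left 2 (adjusted p 0.0688 to 0.127). The count of regulators was 2 without EE left 2 or oil left 1. CCNO and DEUP1 were under 1 FPKM in every oil left duct, so the share of regulators that rose depends in part on the filter on low values.

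In the axoneme, the moving core of the cilium, 19 of 54 tested members rose (35.2%) and 0 fell, and the median log2 ratio was 0.64, against 0.00 over all genes. RSPH1, a radial spoke protein, had 1.09, 1.62 and 1.6 FPKM in EE and 0.02, 0.05 and 0.09 FPKM in oil left ducts (log2 ratio 4.72 ± 0.69 SE, adjusted p = 0.000387). ARMC4, a docking factor for outer dynein arms, had 1.37, 1.23 and 0.89 FPKM in EE and 0.09, 0.06 and 0 FPKM in oil left ducts (log2 ratio 4.33 ± 0.76 SE, adjusted p = 0.00163). SNTN, a protein of the ciliary tip, had 2.32, 5.87 and 2.19 FPKM in EE and 0, 0 and 0 FPKM in oil left ducts, so it was at least 13.9-fold higher against 3 counts per library. DNAI2, an outer arm dynein chain (2.52), and DRC3, of the dynein regulatory complex (1.25), rose too. At an unadjusted p under 0.05 there were 28 members higher and 0 lower, against 13.3% and 13.0% of all genes. DESeq2 called 23 higher and 0 lower, against 7.99% and 8.23% of all genes. Of the 19 members 9 kept their calls in all 6 fits with 1 left library left out, and the count without EE left 2 was 12. Of 80 axoneme genes with values, 54 passed the filter on low values. RSPH1, ARMC4 and SNTN were under 1 FPKM in every oil left duct, so they passed it through other libraries. The share of axoneme genes that rose, their median and the absence of falls therefore depend in part on this filter.

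Of the genes of the epithelial sheet more rose than fell, and most were not called. EPCAM rose (log2 ratio 0.77 ± 0.10 SE, adjusted p = 8e-05). Cadherin-1 (LOC107319509), the adhesion protein of epithelial junctions, had 83, 86.2 and 73.2 FPKM in EE and 44, 48.4 and 44.6 FPKM in oil left ducts (log2 ratio 0.81 ± 0.12 SE, adjusted p = 0.000317). ELF3, an epithelial transcription factor, had 28.9, 26.5 and 23.7 FPKM in EE and 10.8, 14.4 and 15.1 FPKM in oil left ducts (log2 ratio 0.96 ± 0.13 SE, adjusted p = 8.46e-05). CLDN10, which forms ion-selective tight junctions, had 191, 195 and 185 FPKM in EE and 83.7, 93.5 and 93 FPKM in oil left ducts (log2 ratio 1.07 ± 0.11 SE, adjusted p = 1.07e-05). RAB17, a trafficking GTPase of polarised epithelia, had 2.23, 3.23 and 3.92 FPKM in EE and 0, 0 and 0 FPKM in oil left ducts and was at least 26.8-fold higher against 3 counts per library. PKP3, a desmosome protein, stood at 0.85. Of 32 tested epithelial genes 9 rose (28.1%) and 3 fell (9.38%), with a median of 0.28.

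The 3 epithelial genes that fell were PPL, KLF5 and a keratin. PPL, a plakin of desmosomes, had 20.9, 21.6 and 18.2 FPKM in EE and 27.9, 29.2 and 30.7 FPKM in oil left ducts (log2 ratio -0.55 ± 0.08 SE, adjusted p = 0.000259). KLF5, an epithelial transcription factor, had 7.83, 9.14 and 6.3 FPKM in EE and 13.2, 14.3 and 15.1 FPKM in oil left ducts (log2 ratio -0.89 ± 0.15 SE, adjusted p = 0.00101). A type I keratin (LOC107325235) stood at -0.30 and was not called without EE left 1, EE left 2, EE left 3, oil left 2 or oil left 3 (adjusted p 0.0515 to 0.145). In the tight junction list 2 of 20 tested members rose (10%) and 1 fell (5%), which is near the background, and the median was 0.11. CLDN16, a claudin known from the kidney tubule, had 0.08, 0.08 and 0.13 FPKM in EE and 1.29, 1.1 and 1.74 FPKM in oil left ducts (log2 ratio -3.8 ± 0.79 SE, adjusted p = 0.00396). A claudin-4-like gene (LOC107322710) had 1.95, 1.97 and 1.03 FPKM in EE and 56.7, 4.74 and 3.72 FPKM in oil left ducts, so its log2 ratio of -3.77 rested on oil left 1, and it was not called without oil left 1 (adjusted p = 0.161). Gap junction beta-6 protein (LOC107308330), a channel between neighbouring cells, had 20.8, 20.2 and 18.5 FPKM in EE and 64.1, 48.5 and 53.5 FPKM in oil left ducts (log2 ratio -1.5 ± 0.13 SE, adjusted p = 1.98e-06).

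Among collagen and matrix genes some chains rose and more fell. COL4A5 and COL4A6, collagen chains of basement membranes, rose. COL4A5 had 302, 267 and 289 FPKM in EE and 84.3, 83.1 and 71.6 FPKM in oil left ducts (log2 ratio 1.83 ± 0.12 SE, adjusted p = 1.07e-07). COL4A6 had 109, 91.8 and 115 FPKM in EE and 34, 37.2 and 28.9 FPKM in oil left ducts (log2 ratio 1.64 ± 0.12 SE, adjusted p = 3.26e-07). LAMA1, a laminin chain of embryonic basement membranes, had 7.05, 4.65 and 7.44 FPKM in EE and 2.25, 1.75 and 1.85 FPKM in oil left ducts (log2 ratio 1.69 ± 0.25 SE, adjusted p = 0.000273). NPNT, an integrin ligand of the same layer, had 29.9, 31.4 and 33.4 FPKM in EE and 18.6, 23.9 and 22.9 FPKM in oil left ducts (log2 ratio 0.52 ± 0.09 SE, adjusted p = 0.000937). The main fibrillar collagens fell. COL1A1 had 798, 605 and 663 FPKM in EE and 1228, 1152 and 993 FPKM in oil left ducts (log2 ratio -0.72 ± 0.14 SE, adjusted p = 0.00192). COL1A2 had 722, 583 and 625 FPKM in EE and 1122, 1013 and 1064 FPKM in oil left ducts (log2 ratio -0.74 ± 0.12 SE, adjusted p = 0.000418). COL3A1 had 1016, 877 and 806 FPKM in EE and 1383, 1318 and 1474 FPKM in oil left ducts (log2 ratio -0.64 ± 0.11 SE, adjusted p = 0.000794). These 3 genes were among the 10 with the largest loss of mean FPKM, although each fell by less than 2-fold. COL11A1, a minor fibrillar chain, had 14.8, 15.6 and 15.2 FPKM in EE and 26.1, 25.9 and 27.3 FPKM in oil left ducts (log2 ratio -0.81 ± 0.08 SE, adjusted p = 3.62e-06). THBS1, a matrix glycoprotein, had 11.2, 11.8 and 12 FPKM in EE and 19.9, 20.5 and 23.9 FPKM in oil left ducts (log2 ratio -0.89 ± 0.09 SE, adjusted p = 1.18e-05). COL27A1, a fibrillar chain, rose, with 1.06, 1.28 and 1.24 FPKM in EE and 0.21, 0.45 and 0.37 FPKM in oil left ducts (log2 ratio 1.79 ± 0.41 SE, adjusted p = 0.00796). COL21A1 stood at 0.53 and was not called without EE left 1, EE left 3, oil left 1 or oil left 3 (adjusted p 0.0595 to 0.112). Of 49 tested collagen and matrix genes 15 fell (30.6%) and 6 rose (12.2%), with a median of -0.16.

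TGFBI, a secreted matrix protein induced by TGF-beta, fell, with 191, 156 and 155 FPKM in EE and 757, 633 and 564 FPKM in oil left ducts (log2 ratio -1.98 ± 0.14 SE, adjusted p = 3.26e-07). ECM2, a matrix glycoprotein, had 52.2, 46.5 and 40.6 FPKM in EE and 105, 92.1 and 94.3 FPKM in oil left ducts (log2 ratio -1.08 ± 0.09 SE, adjusted p = 1.61e-06). Several parts of the elastic fibre fell. ELN, elastin itself, had 168, 209.8 and 193 FPKM in EE and 348, 332 and 369 FPKM in oil left ducts (log2 ratio -0.89 ± 0.09 SE, adjusted p = 8.49e-06). LOX, which cross-links collagen and elastin, had 97.8, 90.5 and 94.8 FPKM in EE and 172, 164 and 173 FPKM in oil left ducts (log2 ratio -0.86 ± 0.08 SE, adjusted p = 2.41e-06). FBN2, a microfibril protein, had 25, 23.3 and 27.6 FPKM in EE and 47.5, 45.9 and 49.7 FPKM in oil left ducts (log2 ratio -0.93 ± 0.09 SE, adjusted p = 7.34e-06). FBLN5, which guides elastin assembly, had 25.1, 28.7 and 31 FPKM in EE and 79.2, 55 and 57.2 FPKM in oil left ducts (log2 ratio -1.19 ± 0.16 SE, adjusted p = 0.000122). Other members rose. LTBP1, which stores latent TGF-beta, had 225, 188 and 219.8 FPKM in EE and 70.5, 85.7 and 86.8 FPKM in oil left ducts (log2 ratio 1.37 ± 0.16 SE, adjusted p = 2.81e-05). EMILIN2, a glycoprotein of elastic fibres, had 19.6, 16.8 and 18.1 FPKM in EE and 7.61, 7.43 and 6.27 FPKM in oil left ducts (log2 ratio 1.34 ± 0.14 SE, adjusted p = 1.02e-05). In all 7 of 20 tested elastic fibre genes fell (35%) and 3 rose (15%), with a median of -0.21.

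Several small proteoglycans fell and some hyaluronan genes rose. LUM, lumican, had 364, 319 and 287 FPKM in EE and 670.1, 576 and 676 FPKM in oil left ducts (log2 ratio -1.0 ± 0.12 SE, adjusted p = 2.67e-05). DCN, decorin, had 399, 387 and 353 FPKM in EE and 559, 547 and 606 FPKM in oil left ducts (log2 ratio -0.60 ± 0.08 SE, adjusted p = 0.000134). Both bind collagen fibrils. FMOD, fibromodulin, stood at -1.35 and SDC2, a heparan sulphate carrier, at -0.42. HAPLN1, which links hyaluronan to proteoglycans, had 11.2, 10.4 and 10.3 FPKM in EE and 3.93, 2.19 and 2.35 FPKM in oil left ducts (log2 ratio 1.89 ± 0.24 SE, adjusted p = 6.84e-05). TNFAIP6, which modifies hyaluronan in the ovulatory cumulus of mouse, had 36.1, 33.1 and 23.9 FPKM in EE and 8.93, 10.5 and 10.8 FPKM in oil left ducts (log2 ratio 1.61 ± 0.20 SE, adjusted p = 5.29e-05). HAS2, a hyaluronan synthase, had 11.1, 9.71 and 10.3 FPKM in EE and 7.5, 6.22 and 7.33 FPKM in oil left ducts (log2 ratio 0.55 ± 0.11 SE, adjusted p = 0.00336). Of 35 tested members 9 fell (25.7%) and 5 rose (14.3%), with a median of -0.03. The count of members called higher was 3 without EE left 2, oil left 1 or oil left 2. Proteases and inhibitors split more evenly, with 7 of 39 tested members higher and 6 lower (median -0.03). MMP15, a membrane protease (0.42), and ADAMTS8 (0.75) rose, and ADAMTS17 (-1.33) and SERPINE2, an inhibitor of serine proteases (-0.52), fell.

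Stroma and mesothelium markers, a list that shares members with the matrix, epithelial and duct formation lists, summed to 2780 to 3247 FPKM in EE left ducts and to 4396 to 4658 FPKM in oil left ducts, so the groups did not overlap. Of its 19 tested members 10 fell (52.6%) and 0 rose, and 0 rose at an unadjusted p under 0.05 or in DESeq2, while 1 was called higher by edgeR without EE left 2. The 10 include the type I keratin (LOC107325235) that is also counted among the epithelial genes. The highest members were COL3A1, COL1A1, LUM and DCN. UPK3B, a mesothelial marker, was at 0 in all 6. The part of cell composition in the matrix results was not tested. Epithelial markers summed to 937 to 1054 FPKM in EE left ducts and to 835 to 902 FPKM in oil left ducts. Smooth muscle genes overlapped, at 2913 to 3284 FPKM in EE and 2495 to 2985 FPKM in oil left ducts. Of 26 tested members 1 was called, DES, an intermediate filament of muscle, at 256, 268 and 218 FPKM in EE and 118, 166 and 149 FPKM in oil left ducts (log2 ratio 0.76 ± 0.15 SE, adjusted p = 0.0032).

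WNT ligands were among the genes that fell, and 3 receptors rose. WNT4, which is required for the duct to form in mouse, had 20.4, 19.98 and 21.5 FPKM in EE and 37.1, 40.1 and 34.1 FPKM in oil left ducts (log2 ratio -0.86 ± 0.14 SE, adjusted p = 0.000531). WNT11 had 6.29, 5.49 and 7.42 FPKM in EE and 11.6, 10.7 and 11.5 FPKM in oil left ducts (log2 ratio -0.82 ± 0.14 SE, adjusted p = 0.00106). WNT6 had 26.4, 29.6 and 31.5 FPKM in EE and 57.6, 53.7 and 40.7 FPKM in oil left ducts (log2 ratio -0.82 ± 0.15 SE, adjusted p = 0.00183). WNT9B, which signals from the Wolffian duct in mouse, had 0.23, 0.12 and 0.19 FPKM in EE and 2.7, 2.55 and 1.47 FPKM in oil left ducts (log2 ratio -3.59 ± 0.65 SE, adjusted p = 0.00132). ROR1, a receptor for WNT5A, had 16.7, 15.6 and 16.8 FPKM in EE and 29.8, 26.8 and 30.1 FPKM in oil left ducts (log2 ratio -0.83 ± 0.08 SE, adjusted p = 6.76e-06). WNT7A, by contrast, had a log2 ratio of -0.07 ± 0.08 SE (adjusted p = 0.664). The frizzled receptors FZD10 and FZD9 rose. FZD10 had 10.9, 10.6 and 10.1 FPKM in EE and 4.61, 4.89 and 5.66 FPKM in oil left ducts (log2 ratio 1.05 ± 0.13 SE, adjusted p = 6.37e-05). FZD9 had 29.7, 31.5 and 32.3 FPKM in EE and 14.1, 18.4 and 12.1 FPKM in oil left ducts (log2 ratio 1.05 ± 0.15 SE, adjusted p = 0.000178). FZD3 stood at 0.56 and was not called without EE left 1 or oil left 3 (adjusted p 0.0657 to 0.0674). Of 29 tested ligands and receptors 8 fell (27.6%) and 3 rose (10.3%), with a median of -0.08, and all 8 that fell kept their calls without any 1 left library.

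Among WNT modulators and readouts 8 of 32 tested members fell (25%) and 5 rose (15.6%), with a median of -0.22. NOTUM, an extracellular inactivator of WNT and itself a pathway target, had 24.2, 22.9 and 23 FPKM in EE and 62.9, 57.9 and 44.9 FPKM in oil left ducts (log2 ratio -1.26 ± 0.12 SE, adjusted p = 4.31e-06). AXIN2, a general readout of the pathway, had 25.3, 24.3 and 27.4 FPKM in EE and 41, 41.4 and 35.8 FPKM in oil left ducts (log2 ratio -0.63 ± 0.09 SE, adjusted p = 0.000152). RSPO2, an enhancer of WNT signalling, had 1.31, 1.54 and 0.84 FPKM in EE and 3.99, 4.51 and 4.01 FPKM in oil left ducts (log2 ratio -1.79 ± 0.22 SE, adjusted p = 4.12e-05). The inhibitor DKK2 had 3.25, 1.62 and 1.43 FPKM in EE and 9.03, 5.87 and 6.83 FPKM in oil left ducts (log2 ratio -1.8 ± 0.25 SE, adjusted p = 0.000126). BAMBI, a decoy receptor for BMP and TGF-beta, stood at -1.28. The R-spondin receptors LGR5 and LGR6 rose. LGR5 had 198, 191 and 182 FPKM in EE and 101, 139 and 131 FPKM in oil left ducts (log2 ratio 0.61 ± 0.10 SE, adjusted p = 0.000658). LGR6 had 5.22, 7.17 and 6.25 FPKM in EE and 1.57, 2.28 and 1.6 FPKM in oil left ducts (log2 ratio 1.75 ± 0.25 SE, adjusted p = 0.000178). WIF1, a secreted inhibitor, had 112, 105 and 102 FPKM in EE and 51.6, 75.2 and 70.03 FPKM in oil left ducts (log2 ratio 0.68 ± 0.11 SE, adjusted p = 0.000587). RNF43, a ubiquitin ligase that removes WNT receptors, stood at 0.54. LGR4 stood at 0.33 and was not called without EE left 1, EE left 3 or oil left 2 (adjusted p 0.0601 to 0.068).

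In the BMP, TGF-beta and AMH list 15 of 48 tested members fell (31.2%) and 4 rose (8.33%), with a median of -0.19. BMP6 had 3.0, 2.73 and 1.82 FPKM in EE and 8.19, 6.07 and 5.33 FPKM in oil left ducts (log2 ratio -1.4 ± 0.21 SE, adjusted p = 0.000315). TGFB2 had 21.4, 18.5 and 18.9 FPKM in EE and 27.1, 28.1 and 31.5 FPKM in oil left ducts (log2 ratio -0.57 ± 0.09 SE, adjusted p = 0.000468). SMAD6 and ID4, which BMP signals induce in many cells, stood at -0.61 and -0.46, and TWSG1, a modulator of BMP, at -0.38. BMPR1B, a BMP receptor, rose, with 5.68, 7.28 and 8.72 FPKM in EE and 2.27, 2.32 and 3.21 FPKM in oil left ducts (log2 ratio 1.47 ± 0.19 SE, adjusted p = 6.5e-05). CHRDL1, a BMP antagonist, had 28.1, 26.7 and 28.9 FPKM in EE and 17.3, 15.4 and 19.1 FPKM in oil left ducts (log2 ratio 0.68 ± 0.10 SE, adjusted p = 0.000287). AMH, the hormone that regresses the duct, had 1.09, 1.08 and 1.3 FPKM in EE and 1.52, 2.33 and 1.56 FPKM in oil left ducts (log2 ratio -0.66 ± 0.27 SE, adjusted p = 0.133). Its receptor AMHR2 had 0.47, 0.38 and 1.4 FPKM in EE and 2.06, 2.1 and 1.34 FPKM in oil left ducts (log2 ratio -1.29 ± 0.55 SE, adjusted p = 0.146). Without EE left 3 it was called (adjusted p = 0.0359).

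**Figure D4:**
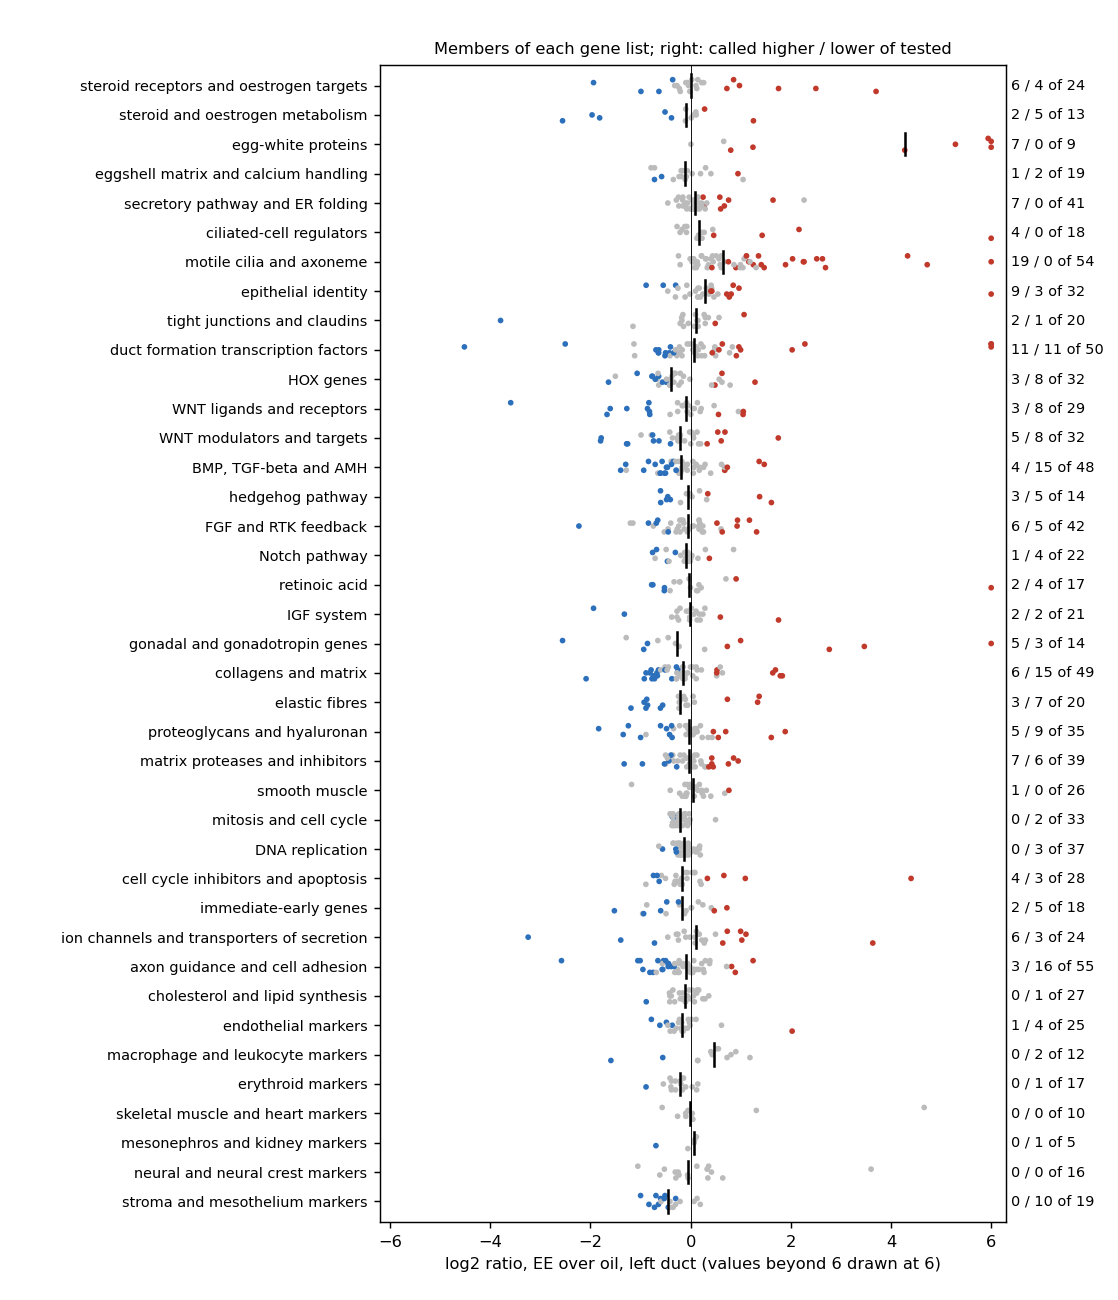
Log2 ratios of EE over oil in left ducts (horizontal axis, limited to ±6) for the tested members of 39 gene lists, 1 point per gene, red where called higher in EE, blue where called lower and grey where not called, with the list median as a black bar and the counts at the right. Egg-white and axoneme genes lie to the right of 0, stroma markers to the left, and duct formation factors on both sides, with 11 called each way.

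Hedgehog genes moved in both directions. The ligand IHH had 3.35, 3.54 and 3.93 FPKM in EE and 1.3, 1.54 and 0.59 FPKM in oil left ducts (log2 ratio 1.61 ± 0.32 SE, adjusted p = 0.00252). BOC, a coreceptor, fell, with 33.6, 35 and 36.7 FPKM in EE and 52.1, 55.7 and 50.3 FPKM in oil left ducts (log2 ratio -0.60 ± 0.08 SE, adjusted p = 6.68e-05), with DISP1, which releases the ligand (-0.46), and the effectors GLI2 (-0.60) and GLI3 (-0.48). GLI2 was not called in limma on log2(FPKM + 1) or in limma on log2(FPKM + 0.1) (adjusted p 0.0504 to 0.0586). GLI3 was not called without EE left 1 or EE left 2 (adjusted p 0.079 to 0.0887). GAS1, a coreceptor (-0.41), was not called without EE left 1 (adjusted p = 0.053). SUFU, an inhibitor of GLI proteins (0.34), was not called without EE left 3 or oil left 3 (adjusted p 0.0716 to 0.0759). In all 3 of 14 tested members rose (21.4%) and 5 fell (35.7%), with a median of -0.05, and without EE left 1 the number called lower was 3.

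Some growth factor ligands and receptors changed. HGF, a stromal growth factor for epithelia, had 17.7, 16 and 17.8 FPKM in EE and 6.36, 7.94 and 6.16 FPKM in oil left ducts (log2 ratio 1.32 ± 0.09 SE, adjusted p = 2.3e-07). MET, its receptor, had 4.62, 3.97 and 4.25 FPKM in EE and 6.13, 6.49 and 7.5 FPKM in oil left ducts (log2 ratio -0.66 ± 0.14 SE, adjusted p = 0.00386). FGF10, a stromal ligand that drives branching in many organs, had 2.5, 2.41 and 2.89 FPKM in EE and 1.57, 0.79 and 1.05 FPKM in oil left ducts (log2 ratio 1.17 ± 0.24 SE, adjusted p = 0.00359). FGFR3 had 20.8, 19.3 and 19.5 FPKM in EE and 7.78, 11.4 and 11.9 FPKM in oil left ducts (log2 ratio 0.93 ± 0.15 SE, adjusted p = 0.00069). FGFR4 had 11.6, 16.4 and 11.4 FPKM in EE and 25.6, 25.4 and 18.6 FPKM in oil left ducts (log2 ratio -0.84 ± 0.15 SE, adjusted p = 0.00127). FGF14, an intracellular member of the family that binds sodium channels, had 0.53, 0.32 and 0.58 FPKM in EE and 2.63, 1.84 and 2.26 FPKM in oil left ducts (log2 ratio -2.23 ± 0.26 SE, adjusted p = 2.31e-05). PDGFA had 12.9, 13.4 and 14.2 FPKM in EE and 20.6, 21.2 and 22.9 FPKM in oil left ducts (log2 ratio -0.69 ± 0.09 SE, adjusted p = 5.89e-05), and its receptor PDGFRA stood at -0.45. In the FGF and receptor tyrosine kinase list 6 of 42 tested members rose (14.3%) and 5 fell (11.9%), with a median of -0.05. Of all genes 6.79% rose and 6.46% fell.

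Among Notch genes 4 of 22 tested members fell (18.2%, against 6.46% of all genes) and 1 rose (4.55%, against 6.79%), with a median of -0.09. The ligands DLL4 and JAG1 fell and kept their calls without any 1 left library. DLL4 had 7.55, 6.3 and 8.83 FPKM in EE and 11, 12.7 and 14.6 FPKM in oil left ducts (log2 ratio -0.76 ± 0.14 SE, adjusted p = 0.00165). JAG1 had 10.6, 8.33 and 7.74 FPKM in EE and 13.2, 13.1 and 16.2 FPKM in oil left ducts (log2 ratio -0.68 ± 0.15 SE, adjusted p = 0.0056). JAG2 (-0.46) was not called without EE left 2, EE left 3 or oil left 3 (adjusted p 0.079 to 0.101). NRARP (-0.31), a Notch target, was not called without EE left 1, EE left 3, oil left 2 or oil left 3 (adjusted p 0.0704 to 0.133). LFNG (0.37), which modifies the receptors, was not called without EE left 1, EE left 2, EE left 3, oil left 1 or oil left 3 (adjusted p 0.0572 to 0.19). The number called lower was 2 without EE left 3 or oil left 3.

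For retinoic acid, a signal that patterns the genital tract, enzymes of synthesis and breakdown fell together. ALDH1A2 and ALDH1A3, which make it, both fell. ALDH1A2 had 48.4, 59.1 and 56.7 FPKM in EE and 79.8, 71.1 and 83.2 FPKM in oil left ducts (log2 ratio -0.53 ± 0.12 SE, adjusted p = 0.00624). ALDH1A3 had 49.8, 45.1 and 48.8 FPKM in EE and 68.3, 66.8 and 69.6 FPKM in oil left ducts (log2 ratio -0.52 ± 0.08 SE, adjusted p = 0.000352). Cytochrome P450 26B1 (LOC107314121), which degrades it, had 4.27, 3.72 and 4.31 FPKM in EE and 6.59, 7.52 and 6.45 FPKM in oil left ducts (log2 ratio -0.75 ± 0.16 SE, adjusted p = 0.00539). STRA6, a receptor for the retinol carrier, rose, with 29.8, 28.3 and 29.8 FPKM in EE and 16.8, 15.9 and 13.6 FPKM in oil left ducts (log2 ratio 0.91 ± 0.13 SE, adjusted p = 0.000206). BCO2, which cleaves carotenoids, rose, with 3.54, 2.93 and 3.63 FPKM in EE and 0, 0.02 and 0.07 FPKM in oil left ducts (log2 ratio 6.93 ± 0.61 SE, adjusted p = 1.98e-06). CRABP1 (-0.78), a binding protein, was not called without EE left 2, EE left 3 or oil left 1 (adjusted p 0.0784 to 0.121). Of 17 tested members 2 rose (11.8%) and 4 fell (23.5%), with a median of -0.03.

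In the insulin-like growth factor list 2 of 21 tested members rose and 2 fell (9.52% each), which is near the background, with a median of -0.02. IGF2 had 12.4, 11.2 and 11.7 FPKM in EE and 6.92, 6.87 and 9.54 FPKM in oil left ducts (log2 ratio 0.59 ± 0.14 SE). Its call was lost without oil left 1 or oil left 2 (adjusted p 0.0556 to 0.0624). PAPPA2, a protease that frees IGF from binding proteins, had 1.37, 1.82 and 1.48 FPKM in EE and 3.68, 4.08 and 3.78 FPKM in oil left ducts (log2 ratio -1.32 ± 0.24 SE, adjusted p = 0.0016). Receptors for the gonadotropins, hormones of the pituitary that act on the gonad, rose. The lutropin receptor (LOC107310840) had 2.2, 3.61 and 5.76 FPKM in EE and 0.48, 0.30 and 0.22 FPKM in oil left ducts (log2 ratio 3.47 ± 0.38 SE, adjusted p = 1.71e-05). FSHR, the receptor of follicle-stimulating hormone, had 1.1, 1.58 and 1.0 FPKM in EE and 0.14, 0.27 and 0.09 FPKM in oil left ducts (log2 ratio 2.77 ± 0.41 SE, adjusted p = 0.000261). INHBB, an inhibin and activin subunit (0.73), was not called without EE left 3 or oil left 3 (adjusted p 0.071 to 0.0757). INHBA (-0.94), another, was not called without any 1 of the 6 left libraries (adjusted p 0.0523 to 0.112). The gonadal list had 5 of 14 tested members higher (35.7%) and 3 lower (21.4%), with a median of -0.27, and 1 was called lower without EE left 1, EE left 2, oil left 1 or oil left 2. Its members FOXL2, FSHR and the lutropin receptor were under 1 FPKM in every oil left duct. The share that rose therefore depends in part on the filter on low values.

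Few members of the mitosis and DNA replication lists were called, all of them lower. The log2 ratio was above 0 in 1 of 33 mitosis and 7 of 37 replication genes. Outside these lists KIF15, SPC25 and FOXM1 were also called lower (log2 ratios -0.39, -0.38 and -0.54). KIF15 was named for its difference between sides. SPC25 and FOXM1 were picked after their calls were seen, so they add nothing to the counts of these lists. KIF15 was not called without EE left 3 or oil left 3 (edgeR adjusted p 0.0509 to 0.0796), and for SPC25 and FOXM1 such fits are not given here. Of 33 tested mitosis genes 0 rose and 2 fell (6.06%, against 6.46% of all genes), with a median of -0.20, and of 37 DNA replication genes 0 rose and 3 fell (8.11%), with a median of -0.13. At an unadjusted p under 0.05 there were 10 mitosis genes and 10 replication genes lower and 0 higher, against 13.0% and 13.3% of all genes. DESeq2 called 5 and 4 lower and 0 higher, against 8.23% and 7.99% of all genes. MKI67, a marker of dividing cells, had 28.9, 23.7 and 23.5 FPKM in EE and 30.01, 29.9 and 36 FPKM in oil left ducts (log2 ratio -0.35 ± 0.12 SE, adjusted p = 0.0654). DESeq2 (adjusted p = 0.0235), the left samples alone (0.0296), an erythroid covariate and leaving out EE left 1, EE right 2 or oil right 2 called it. PCNA, the replication clamp, had 275, 331 and 298 FPKM in EE and 342, 374 and 383 FPKM in oil left ducts (log2 ratio -0.30 ± 0.08 SE, adjusted p = 0.0206). CDC45, a part of the replicative helicase, had 9.46, 8.74 and 7.46 FPKM in EE and 12.1, 12.1 and 13.3 FPKM in oil left ducts (log2 ratio -0.56 ± 0.13 SE, adjusted p = 0.0066). CDC45 kept its call without any 1 left library. PCNA was not called without EE left 1, EE left 3, oil left 2 or oil left 3 (adjusted p 0.0585 to 0.102). NUSAP1 (-0.37) was not called without EE left 1, EE left 2, EE left 3 or oil left 3 (adjusted p 0.0509 to 0.0968). KIF11 (-0.31) was not called without EE left 1, EE left 2, EE left 3, oil left 2 or oil left 3 (adjusted p 0.0588 to 0.166). Without EE left 2, EE left 3 or oil left 3 no member of the mitosis list was called by edgeR, and 1 was without EE left 1. Without EE left 3, oil left 2 or oil left 3 a single member of the replication list was called.

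CDKN1C, an inhibitor of the cell cycle, rose, with 157, 174 and 189 FPKM in EE and 84.4, 90.1 and 66.7 FPKM in oil left ducts (log2 ratio 1.09 ± 0.11 SE, adjusted p = 8.46e-06). BCL2L14, of the BCL2 family, rose, with 4.6, 5.19 and 3.74 FPKM in EE and 0.34, 0 and 0.32 FPKM in oil left ducts (log2 ratio 4.4 ± 0.62 SE, adjusted p = 0.000163). BMF and BCL2L11, which promote apoptosis, fell. BMF had 7.06, 9.6 and 8.33 FPKM in EE and 13, 14.3 and 11.9 FPKM in oil left ducts (log2 ratio -0.67 ± 0.11 SE, adjusted p = 0.000736). BCL2L11 had 3.87, 4.24 and 4.65 FPKM in EE and 6.1, 7.65 and 5.75 FPKM in oil left ducts (log2 ratio -0.63 ± 0.13 SE, adjusted p = 0.00454). In that list 4 of 28 tested members rose (14.3%) and 3 fell (10.7%), with a median of -0.18, and without oil left 1 the number called higher was 2. CASP6 (0.33) was not called without EE left 2, EE left 3, oil left 1 or oil left 3 (adjusted p 0.055 to 0.0799). CCN2, a matricellular protein and a target of YAP, had 22.4, 35.8 and 30.6 FPKM in EE and 81.6, 62.4 and 109 FPKM in oil left ducts (log2 ratio -1.52 ± 0.20 SE, adjusted p = 8.46e-05). CCN1, of the same family, stood at -0.94 and was not called without EE left 1, EE left 3 or oil left 3 (adjusted p 0.0607 to 0.0897). Of 18 immediate-early genes 2 rose and 5 fell, with a median of -0.17, and CCN2 and MYC were those that kept their calls in all 6 fits. The count called lower was 1 without EE left 1 and 3 without EE left 2, EE left 3, oil left 2 or oil left 3, and that called higher was 1 without any left library but oil left 2.

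Other genes with very low ratios are known from adhesion, nerve and muscle. NTS, neurotensin, a peptide hormone, had 7.19, 8.63 and 7.28 FPKM in EE and 51.6, 46.7 and 48.9 FPKM in oil left ducts (log2 ratio -2.69 ± 0.16 SE, adjusted p = 6.72e-08), the lowest p of all genes that fell. EMB, embigin, an adhesion protein, had 2.86, 2.01 and 1.42 FPKM in EE and 15.5, 10.1 and 11.7 FPKM in oil left ducts (log2 ratio -2.58 ± 0.27 SE, adjusted p = 9.37e-06). SLC8A3, a sodium-calcium exchanger, had 1.7, 2.36 and 1.88 FPKM in EE and 11.1, 9.42 and 10.4 FPKM in oil left ducts (log2 ratio -2.4 ± 0.22 SE, adjusted p = 3.13e-06). COLQ, the tail that anchors acetylcholinesterase, had 0.82, 0.91 and 1.03 FPKM in EE and 3.79, 4.53 and 6.08 FPKM in oil left ducts (log2 ratio -2.4 ± 0.29 SE, adjusted p = 3.87e-05). ADGRV1, a large adhesion receptor, had 0.22, 0.22 and 0.36 FPKM in EE and 1.23, 1.38 and 1.54 FPKM in oil left ducts (log2 ratio -2.37 ± 0.22 SE, adjusted p = 2.86e-06). ANGPTL5, an angiopoietin-like secreted protein, had 0.19, 0.22 and 0.10 FPKM in EE and 1.88, 1.42 and 2.86 FPKM in oil left ducts (log2 ratio -3.62 ± 0.71 SE, adjusted p = 0.00249). Of 55 tested genes of axon guidance and adhesion 16 fell (29.1%) and 3 rose (5.45%), with a median of -0.08. UNC5C, a netrin receptor, stood at -1.01, CNTN4 at -1.05 and PLXNA4, a semaphorin receptor, at -0.81. EPHB1, an ephrin receptor, rose, with 62, 64.1 and 66.3 FPKM in EE and 33.9, 38.3 and 35.8 FPKM in oil left ducts (log2 ratio 0.82 ± 0.08 SE, adjusted p = 3.08e-06).

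Of 25 tested endothelial genes 4 fell (16%, against 6.46% of all genes) and 1 rose, with a median of -0.18 and sums of 371 to 396 FPKM in EE left ducts and 410 to 436 FPKM in oil left ducts, and ADGRL4 (-0.78) alone kept its call in all 6 fits. The endothelial count called lower was 1 without EE left 2 and 2 without any other left library. Macrophage and leukocyte genes had 0 of 12 higher and 2 lower in edgeR, CCR7 and CXCR4, with a median of 0.47, and 6 were higher at an unadjusted p under 0.05. DESeq2 called 4 of them higher and limma on log2(FPKM + 1) called 3. CCR7 (-1.59) was not called without EE left 2, EE left 3 or oil left 1 (adjusted p 0.0587 to 0.0652), and CXCR4 (-0.56) without EE left 2, EE left 3, oil left 2 or oil left 3 (adjusted p 0.0502 to 0.0948). Without EE left 1, oil left 1 or oil left 2 a macrophage gene was called higher by edgeR, and without oil left 3 there were 2. The number called lower was 0 without EE left 2 or EE left 3 and 1 without any oil left library. Erythroid genes had 1 of 17 lower, GYPC (-0.89). Skeletal muscle genes had 0 of 10 called by edgeR, DESeq2 or limma and 0 at an unadjusted p under 0.05. Neural genes had 0 of 16 called by these tools and 2 at an unadjusted p under 0.05, 1 in each direction, and without EE left 2 edgeR called 1 lower. In the cholesterol list 1 of 27 tested members fell. Without EE left 1 edgeR also called 1 member higher. Of 9 tested feather keratins 7 were called lower by edgeR, 0 without oil left 1 and 0 by limma. DESeq2 called 0 of them lower, giving 5 of the 7 no adjusted p. Without oil left 1 feather keratin 1-like (LOC107324996) stood at a log2 ratio of 3.72 (adjusted p = 0.671).

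Among called genes the 4 largest gains in mean FPKM were those of RPL3, PABPC1, NPM1 and RPL6, all by small ratios. PABPC1, which binds poly(A) tails, gained most among those with a stable call, at 979, 935 and 1039 FPKM in EE and 715, 748 and 712 FPKM in oil left ducts (log2 ratio 0.43 ± 0.09 SE, adjusted p = 0.00312). NPM1, a nucleolar chaperone, had 1049, 1069 and 897 FPKM in EE and 691, 747 and 805 FPKM in oil left ducts (log2 ratio 0.41 ± 0.10 SE, adjusted p = 0.0117). It was not called without EE left 1, EE left 2 or oil left 1 (adjusted p 0.051 to 0.0661). RPL3, a ribosomal protein, stood at 0.29 and was not called without EE left 1, EE left 2, EE left 3, oil left 1 or oil left 3 (adjusted p 0.0666 to 0.164). RPL6 (0.23) was not called without any 1 of the 6 left libraries (adjusted p 0.0772 to 0.133). Among the losses, SPARC, a collagen-binding matrix protein, had 886, 879 and 826 FPKM in EE and 1199, 1087 and 1039 FPKM in oil left ducts (log2 ratio -0.38 ± 0.08 SE, adjusted p = 0.00622). MDK, midkine, a heparin-binding growth factor, had 551, 960.4 and 705 FPKM in EE and 1113, 1030.2 and 1068 FPKM in oil left ducts (log2 ratio -0.55 ± 0.15 SE). It was not called without EE left 1, EE left 3, oil left 1 or oil left 3 (adjusted p 0.0561 to 0.107).

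A further 6 genes were among those with the lowest p values. TNFSF13B, a cytokine for B cells, rose, with 47.6, 44.5 and 53.4 FPKM in EE and 13.1, 12.7 and 11 FPKM in oil left ducts (log2 ratio 1.97 ± 0.12 SE, adjusted p = 7.21e-08). A ras-related protein gene (LOC107321967) rose as well, with 97.5, 85.9 and 123 FPKM in EE and 4.69, 5.15 and 2.21 FPKM in oil left ducts (log2 ratio 4.61 ± 0.30 SE, adjusted p = 1.02e-07). The other 4 fell. RGL1, an exchange factor for Ral, had 23.1, 25.9 and 25.5 FPKM in EE and 51.5, 50.2 and 47.6 FPKM in oil left ducts (log2 ratio -1.02 ± 0.08 SE, adjusted p = 7.56e-07). LIMCH1, an activator of non-muscle myosin, had 13.9, 15.7 and 13.6 FPKM in EE and 34, 31.6 and 36.9 FPKM in oil left ducts (log2 ratio -1.26 ± 0.09 SE, adjusted p = 3.26e-07). MEGF10, an engulfment receptor, had 2.22, 2.64 and 2.13 FPKM in EE and 7.97, 5.84 and 7.44 FPKM in oil left ducts (log2 ratio -1.62 ± 0.13 SE, adjusted p = 6.83e-07). SLC16A12, a monocarboxylate transporter, had 4.66, 4.49 and 3.44 FPKM in EE and 11.8, 12.1 and 11.2 FPKM in oil left ducts (log2 ratio -1.5 ± 0.13 SE, adjusted p = 1.29e-06). The groups did not overlap in any of these 6 genes. Low p was the rule of their choice, so the absence of overlap is no separate result. CRYBB2, a crystallin, rose, with 6.62, 7.49 and 5.6 FPKM in EE and 0.50, 0.46 and 0 FPKM in oil left ducts (log2 ratio 4.18 ± 0.64 SE, adjusted p = 0.000345). A parvalbumin beta-like gene (LOC107320557), of a family of calcium-binding proteins, had 7.46, 5.16 and 9.26 FPKM in EE and 0.17, 0.19 and 0.30 FPKM in oil left ducts (log2 ratio 5.08 ± 0.50 SE, adjusted p = 6.49e-06). A gene for an SH3 domain-binding glutamic acid-rich protein (LOC107323524) had 0.17, 0.17 and 0.05 FPKM in EE and 2.77, 2.44 and 3.22 FPKM in oil left ducts (log2 ratio -4.47 ± 0.65 SE, adjusted p = 0.000206).

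The same contrast in right ducts, which shares no library with the left one, called 4122 genes (34.0%), 2134 higher (17.6%) and 1988 lower (16.4%). Of the 1605 genes called on the left, 1102 were also called on the right (68.7% of the left calls and 26.7% of the right calls). In 1014 of them the direction was the same and in 88 it was opposite. The EE effect itself differed between the sides in 1358 genes (11.2%), 567 with a higher log2 ratio on the left (4.68%) and 791 with a lower one (6.53%). These include 356 of the 1605 genes called on the left (22.2%) and all 88 genes called in opposite directions. Scaling to library size alone moves the median log2 ratio of all genes to 0.17 on the right and that of the difference to -0.15. The split is then 3479 higher and 1113 lower on the right, and 309 higher and 1208 lower for the difference. Haemoglobin transcripts took 3.83% ± 2.01 of the counts in EE right ducts and 8.76% ± 3.49 in oil right ducts (SD, n = 3 each), and with the summed level of erythroid transcripts as a covariate 2366 genes were called on the right.

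**Figure D5:**
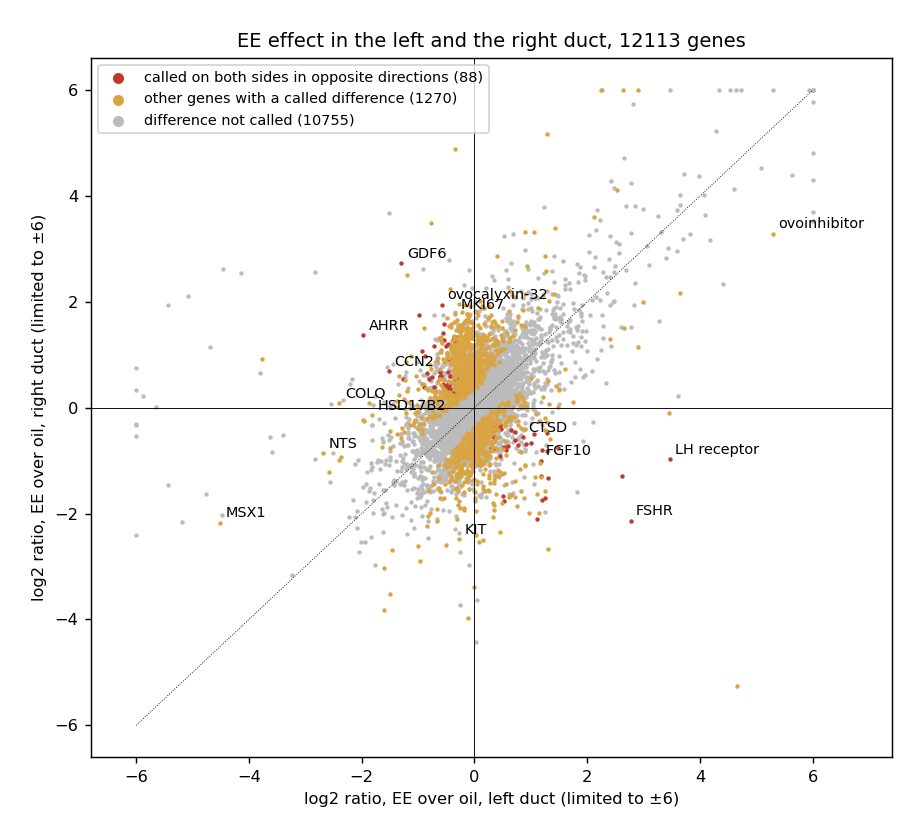
Log2 ratio of EE over oil in the left duct (horizontal axis) and in the right duct (vertical axis), both limited to ±6, 1 point per gene, with equal effects on the dotted line. The 88 genes called in opposite directions (red) include FSHR, the lutropin receptor and FGF10 at the lower right and AHRR, CCN2 and GDF6 at the upper left.

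Some genes rose with EE on the left and fell with it on the right. FSHR averaged 1.23 ± 0.31 in EE left ducts and 0.17 ± 0.09 in oil left ducts, against 1.07 ± 0.37 in EE right ducts and 4.16 ± 1.0 in oil right ducts (FPKM, SD, n = 3 each), and the difference of the log2 ratios was 4.91 (edgeR adjusted p = 2.78e-05). The lutropin receptor (LOC107310840) averaged 3.86 ± 1.79 in EE left ducts and 0.33 ± 0.13 in oil left ducts, against 3.97 ± 1.02 in EE right ducts and 6.89 ± 1.4 in oil right ducts (difference of the log2 ratios 4.44, adjusted p = 3.05e-05, edgeR). FGF10 averaged 2.6 ± 0.26 in EE left ducts and 1.14 ± 0.40 in oil left ducts, against 2.6 ± 0.42 in EE right ducts and 4.66 ± 0.66 in oil right ducts (difference of the log2 ratios 2.18, adjusted p = 0.000446, edgeR). CTSD averaged 164 ± 33.4 in EE left ducts and 89.7 ± 4.83 in oil left ducts, against 180.3 ± 2.59 in EE right ducts and 237 ± 33.1 in oil right ducts (difference of the log2 ratios 1.41, adjusted p = 3.81e-05, edgeR). CCDC3, a secreted protein, and TLL1, a metalloprotease that cleaves BMP antagonists, had differences of 2.94 and 1.76 (edgeR adjusted p = 6.66e-06 and 6.66e-06). In FSHR, the lutropin receptor, FGF10 and CTSD the means of the EE ducts of both sides lay between those of the oil ducts.

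Other genes fell on the left and rose on the right. Ovocalyxin-32 (LOC107318369) averaged 55.2 ± 4.72 in EE left ducts and 81.8 ± 12 in oil left ducts, against 38.5 ± 3.25 in EE right ducts and 8.86 ± 1.52 in oil right ducts (difference of the log2 ratios -2.52, adjusted p = 5.36e-06, edgeR). CCN2 averaged 29.6 ± 6.78 in EE left ducts and 84.3 ± 23.4 in oil left ducts, against 17.9 ± 3.75 in EE right ducts and 9.76 ± 1.16 in oil right ducts (difference of the log2 ratios -2.22, adjusted p = 0.000114, edgeR). AHRR averaged 0.35 ± 0.11 in EE left ducts and 1.38 ± 0.22 in oil left ducts, against 0.09 ± 0.01 in EE right ducts and 0.03 ± 0 in oil right ducts (difference of the log2 ratios -3.34, adjusted p = 0.000825, edgeR), so it was near 0 in both right groups. CFTR had a difference of -1.89 (edgeR adjusted p = 0.000158), and GDF6, a BMP ligand, one of -4.02 (0.000522). On the left GDF6 was not called without EE left 1, EE left 3, oil left 1 or oil left 2 (adjusted p 0.0698 to 0.158).

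A further group changed on the left with a smaller change or no call on the right. HSD17B2 averaged 25.1 ± 2.47 in EE left ducts and 87.3 ± 16.9 in oil left ducts, against 19.98 ± 4.59 in EE right ducts and 19.5 ± 2.03 in oil right ducts (difference of the log2 ratios -1.68, adjusted p = 8e-05, edgeR). NTS averaged 7.7 ± 0.81 in EE left ducts and 49.1 ± 2.43 in oil left ducts, against 4.04 ± 1.24 in EE right ducts and 6.5 ± 0.97 in oil right ducts (difference of the log2 ratios -1.83, adjusted p = 9.06e-05, edgeR). COLQ (-2.48), ANO1 (-1.41), NOTUM (-1.42), FBLN5 (-1.52) and RGL1 (-1.08) also fell more on the left, as did MSX1 (-2.35, edgeR adjusted p = 0.0376), which fell on both sides. The difference in MSX1 was not called without EE left 1, EE left 2, oil left 1, oil left 2, EE right 2, EE right 3, oil right 1 or oil right 2 (adjusted p 0.0571 to 0.15) or in DESeq2 (0.0509). IGF1 averaged 6.22 ± 0.54 in EE left ducts and 1.86 ± 0.66 in oil left ducts, against 7.37 ± 0.58 in EE right ducts and 6.11 ± 1.05 in oil right ducts (difference of the log2 ratios 1.65, adjusted p = 0.000344, edgeR). HGF (1.24), CDKN1C (1.21) and cytochrome P450 1B1 (LOC107311343, 1.45) likewise rose more on the left. Ovoinhibitor (LOC107320451) rose more on the left (2.0, edgeR adjusted p = 0.000647), where its oil level was lower, and so did CLIC6 (1.48, adjusted p = 0.00295).

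The 10 genes with the lowest p for the difference included 7 genes of cell division that were higher with EE on the right. MKI67 averaged 25.4 ± 3.04 in EE left ducts and 32 ± 3.49 in oil left ducts, against 19.7 ± 3.36 in EE right ducts and 5.17 ± 0.85 in oil right ducts (difference of the log2 ratios -2.11, adjusted p = 5.36e-06, edgeR). CCNA2, a cyclin of S and G2 phase, averaged 29.2 ± 2.56 in EE left ducts and 32.2 ± 2.32 in oil left ducts, against 21.6 ± 1.59 in EE right ducts and 6.97 ± 0.83 in oil right ducts (difference of the log2 ratios -1.62, adjusted p = 5.36e-06, edgeR). PRC1 (-1.62), CKAP2 (-1.78), KIF15 (-1.66), KIF11 (-1.65) and UHRF1 (-1.52) had differences of the same sign. KIT, a receptor tyrosine kinase, averaged 4.85 ± 0.25 in EE left ducts and 5.76 ± 1.02 in oil left ducts, against 7.66 ± 0.86 in EE right ducts and 38.1 ± 2.81 in oil right ducts (difference of the log2 ratios 2.22, adjusted p = 5.36e-06, edgeR). WNT7A (-0.92), PAX2 (-0.79) and MSX2 (-0.64), none of them called on the left, rose on the right (log2 ratios 0.85, 0.87 and 0.67) and had called differences (edgeR adjusted p = 0.000123, 0.00762 and 0.00302). Without oil left 1, oil right 1 and EE right 1 the adjusted p of PAX2 was 0.066.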

How the data were processed

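Poly(A) RNA of Müllerian ducts was sequenced, 3 libraries for each of 4 groups. The authors deposited raw counts and FPKM for 16013 genes. The submitters' processing notes name cutadapt 1.9.1, HISAT2 2.0.1, HTSeq 0.6.1 and DESeq2 1.6.3. The sources used here give neither the genome build nor the strand setting. FPKM recomputed from the deposited counts and gene lengths returned the deposited FPKM within 0.005.

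Groups came from the labels. Counts were fitted with edgeR 4.0.16 in R 4.3.3 (quasi-likelihood, TMM scaling, 12 libraries, 4 group means, two-sided, Benjamini-Hochberg over 12113 genes, called under 0.05). Genes passed where 3 or more libraries reached an FPKM of 1, and 625 genes were at 0 in all. Genes near 0 in some groups passed through the libraries where they were higher, so the shares called in a list depend in part on this filter. Alternatives used DESeq2 1.42.0, limma 3.58.1 on log2(FPKM + 1) and log2(FPKM + 0.1), RLE or library-size scaling, other filters, the left samples only, covariates and leaving out each library. The fit was tested on simulated data. Total counts of 13303458 to 23621985 and 3 libraries a group set the precision. Intervals and limits on counts of 0 cover counting error only.

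Members and the 39 lists were chosen with earlier results of these data known, 46 list members were matched through their descriptions, and the feather keratin list was made after the values were seen. Genes were named by extreme ratio, gain or loss in FPKM and lowest p, over all genes, for the difference between sides and within lists, plus 15 set genes. Those named by extreme ratio had to show no overlap between EE and oil left libraries. They also needed a mean count of at least 50 in the higher group. MYC, GDF6, CCDC3, TLL1, COL21A1, LOC107321681, SPC25 and FOXM1 were added after their values were seen. Paralogues and overlapping genes may share reads. A few genes chosen by these rules are left out here.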

Additional observations from a re-analysis of the deposited data

Results flagged for a closer look

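The effect of EE differed between left and right ducts in the genes below, by edgeR's test of the difference of the log2 ratios (left minus right, adjusted p under 0.05). With 3 samples a group no library was tested as an outlier of its group.

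Genes called higher on the left and lower on the right had differences of 1.41 for CTSD, 1.76 for TLL1, 2.18 for FGF10, 2.28 for COL21A1, 2.94 for CCDC3, 4.44 for the lutropin receptor (LOC107310840) and 4.91 for FSHR. Where the left call was lower and the right call higher, the differences were -4.02 for GDF6, -3.34 for AHRR, -2.52 for ovocalyxin-32 (LOC107318369), -2.22 for CCN2, -1.89 for CFTR, -1.01 for CXCR4 and -0.83 for JAG2, and among genes of cell division, higher on the right and lower or not called on the left, the differences were -2.11 for MKI67, -1.98 for CDC45, -1.78 for CKAP2, -1.7 for NUSAP1, -1.66 for KIF15, -1.65 for KIF11, -1.62 for CCNA2, -1.62 for PRC1, -1.52 for UHRF1 and -0.88 for PCNA.

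Genes called higher on the left and not on the right had differences of 0.40 for PABPC1, 0.48 for GALNT7, 0.56 for NPNT, 0.56 for ADAMTS8, 1.21 for CDKN1C, 1.24 for HGF, 1.45 for cytochrome P450 1B1 (LOC107311343), 1.65 for IGF1 and 1.67 for extracellular fatty acid-binding protein (LOC107321681). Those called lower on the left and not on the right had differences of -4.68 for the claudin-4-like gene (LOC107322710), -2.48 for COLQ, -1.68 for HSD17B2, -1.59 for FMOD, -1.52 for FBLN5, -1.42 for NOTUM, -1.41 for ANO1, -1.38 for CCN1, -1.08 for RGL1, -1.08 for cytochrome P450 26B1 (LOC107314121), -0.97 for ADGRL4, -0.75 for MET, -0.55 for SDC2, -0.54 for PDGFA, -0.49 for AXIN2, -0.46 for GAS1 and -0.41 for NRARP.

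Genes called higher on both sides had differences of -1.96 for FOXJ1, -0.74 for EPHB1, -0.71 for LFNG, -0.64 for LGR5, 0.44 for KCNQ1, 1.48 for CLIC6 and 2.0 for ovoinhibitor (LOC107320451). Those called lower on both sides had differences of -2.35 for MSX1, -1.83 for NTS, -1.44 for ADGRV1, -1.41 for SLC8A3, -1.37 for EMB, -0.81 for LIMCH1, -0.62 for LUM, -0.59 for ELN, -0.43 for FBN2, 0.74 for COL11A1, 0.92 for ALDH1A3, 1.23 for WNT11 and 1.48 for BMF. A positive value in that last set is a smaller fall on the left. Genes not called on the left but called on the right had differences of -0.92 for WNT7A, -0.79 for PAX2, -0.64 for MSX2 and 2.22 for KIT.

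Some of these differences were weak. In NPNT, ADAMTS8, GALNT7, KCNQ1 and PABPC1 the call was lost with scaling to library size alone and in both limma fits. The adjusted p in these fits was 0.0695 to 0.0843 for NPNT, 0.14 to 0.177 for ADAMTS8 and 0.168 to 0.181 for GALNT7. It was 0.205 to 0.223 for KCNQ1 and 0.134 to 0.179 for PABPC1. Both limma fits also lost the call in FOXJ1 (0.071 to 0.216) and the claudin-4-like gene (LOC107322710, 0.0701 to 0.0963). In limma on log2(FPKM + 0.1) the call was also lost in AHRR (adjusted p = 0.058), ADGRV1 (adjusted p = 0.127) and MSX1 (adjusted p = 0.0518). Leaving out 1 library ended the call in CCN1 (oil left 3, adjusted p = 0.0532), in MET (EE left 2, oil left 3 or oil right 3, 0.0527 to 0.0554) and in LUM (EE left 2, EE left 3, oil left 1, oil left 3 or oil right 3, 0.0513 to 0.0626). It was lost without EE left 3, oil left 1 or EE right 1 in the claudin-4-like gene (LOC107322710, 0.061 to 0.088). In EMB it was lost without EE left 2, EE left 3, oil left 1, EE right 2, oil right 2 or oil right 3 (0.0539 to 0.0837). In ADAMTS8, FBN2, FOXJ1, GALNT7, GAS1, KCNQ1, MSX1, NRARP, PABPC1 and extracellular fatty acid-binding protein (LOC107321681) it was lost without any 1 of at least 6 of the 12 libraries, with adjusted p up to 0.0687 for ADAMTS8, 0.122 for FBN2, 0.0832 for FOXJ1, 0.067 for GALNT7, 0.0977 for GAS1, 0.108 for KCNQ1, 0.15 for MSX1, 0.109 for NRARP, 0.118 for PABPC1 and 0.0866 for LOC107321681.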

How the results depend on the processing

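The number of genes called in the left duct lay between 1327 and 1961 in the fits with another scaling, tool, filter or covariate or with the left samples only, against 1605, and DESeq2 gave the highest count. Leaving out 1 of the 12 libraries gave 1211 to 1678 calls, with 620 to 844 higher and 560 to 860 lower. For the right duct these fits gave 3244 to 4184 calls (1688 to 2140 higher, 1556 to 2044 lower), and for the difference 1015 to 1467 (426 to 599 higher, 589 to 868 lower). Of the 1605 genes, 864 (53.8%) kept their call under every alternative, 1593 kept it in DESeq2, 1273 in limma on log2(FPKM + 1) and 1170 without oil left 1, oil right 1 and EE right 1, an alternative chosen after seeing the data that gave 1272 calls. On the right, scaling to library size alone gave 3479 higher and 1113 lower, limma 3440 and 1046 with a pseudocount of 1 and 3473 and 1018 with 0.1, and an erythroid covariate 1271 and 1095 (2366 in all). For the difference, library size alone gave 309 higher and 1208 lower, and limma 292 and 279 higher with pseudocounts of 1 and 0.1. These 3 settings shift the median of all genes on the right (0.17, 0.15 and 0.17 on the log2 scale), and the cause of the erythroid result was not tested. Direction reversed for LOC107324996 (3.72 without oil left 1 and 3.72 without the 3 libraries together). It also reversed for MSX2 (-0.0020 with an erythroid covariate, -0.014 without EE left 1, -0.0082 without oil left 3) and for PAX2 (-0.016 without EE left 3), neither of which was called. Over the fits leaving out 1 library these 3 genes ranged from -11.7 to 3.72, from -0.014 to 0.060 and from -0.016 to 0.14. A block for the replicate number gave 1564 calls on the left (811 higher, 753 lower), 4035 on the right (2108 and 1927) and 1285 for the difference (521 and 764). Correlations between same-numbered samples were -0.149 to 0.136 over all pairs of groups, and the numbers were not taken as pairs. Between left and right ducts they were 0.0411, 0.1203 and 0.1358 in oil and -0.0364, 0.037 and 0.0875 in EE. The labels used here name no embryo. The block also joins EE with oil samples of the same number, so it does not test a pairing of the sides within an embryo. Depth and 3 libraries a group limit small changes. On simulated data with 200 of 12113 genes changed, 47.5% of 1.5-fold and 80% of 2-fold changes were recovered. Far more genes were called in the data, which makes the adjustment of p less strict, so these rates need not hold there. The search for promoter motifs was not run.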
